A study of Homo sapiens with 9 samples.

Results

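The comparison described here is HEL cells treated with 5 nM of the phorbol ester PMA for 48 h against untreated HEL cells. Each condition was measured on 1 array, so 2 of the 9 expression arrays of the series enter it, and the members were chosen by the sample titles alone. HEL is a human erythroleukemia cell line that carries an activating mutation of the kinase JAK2 and expresses genes of both the erythroid and the megakaryocytic lineage. The other HEL array is of cells given 20 nM decitabine (DAC), which inhibits DNA methyltransferases, a dose that the title states and that the treatment protocol does not list. The remaining 6 arrays are of K562, a leukemia line from chronic myeloid leukemia, with 5 nM PMA, 100 nM DAC, 25 µM or 50 µM hemin on 1 array each, and without treatment on 2 arrays. All groups are cultured lines with no genetic change made for the study, and each line stands for 1 leukemia. Because each HEL condition has 1 array, no difference below carries a test, an SD or a p-value.

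PMA takes the place of the lipid messenger diacylglycerol and activates protein kinase C. Protein kinase C in turn feeds the Ras and MAP kinase cascade and the NF-kappaB pathway, which end in the transcription factors AP-1 and NF-kappaB. In erythroleukemia lines phorbol esters are a classical inducer of megakaryocytic features, with adhesion, spreading and slower growth, while the erythroid program recedes.

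The values are log2 expression from Affymetrix arrays, so a difference of 1 is 2-fold. A gene is represented by its brightest probe set, and 9641 genes reached a log2 value of 5 in at least 1 HEL array. Where one array of a pair lay under 5, a difference is also given as a bound counted from 5. With PMA, 711 genes were at least 2-fold higher (7.37%) and 582 at least 2-fold lower (6.04%) than in untreated HEL cells, and the median difference over all genes was -0.077. At 4-fold the counts were 215 higher and 97 lower, and at 8-fold 80 higher and 24 lower. Of the genes at least 2-fold higher, 534 were above 5 on both arrays, 176 on one and 1 on neither, and of those at least 2-fold lower, 405, 163 and 14. When values under 5 were raised to 5, 623 of the 711 and 474 of the 582 stayed past 2-fold. Counts over a gene list concern its members that passed the filter at 5, so a member seen only where it is high had to differ.

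**Figure D1:**
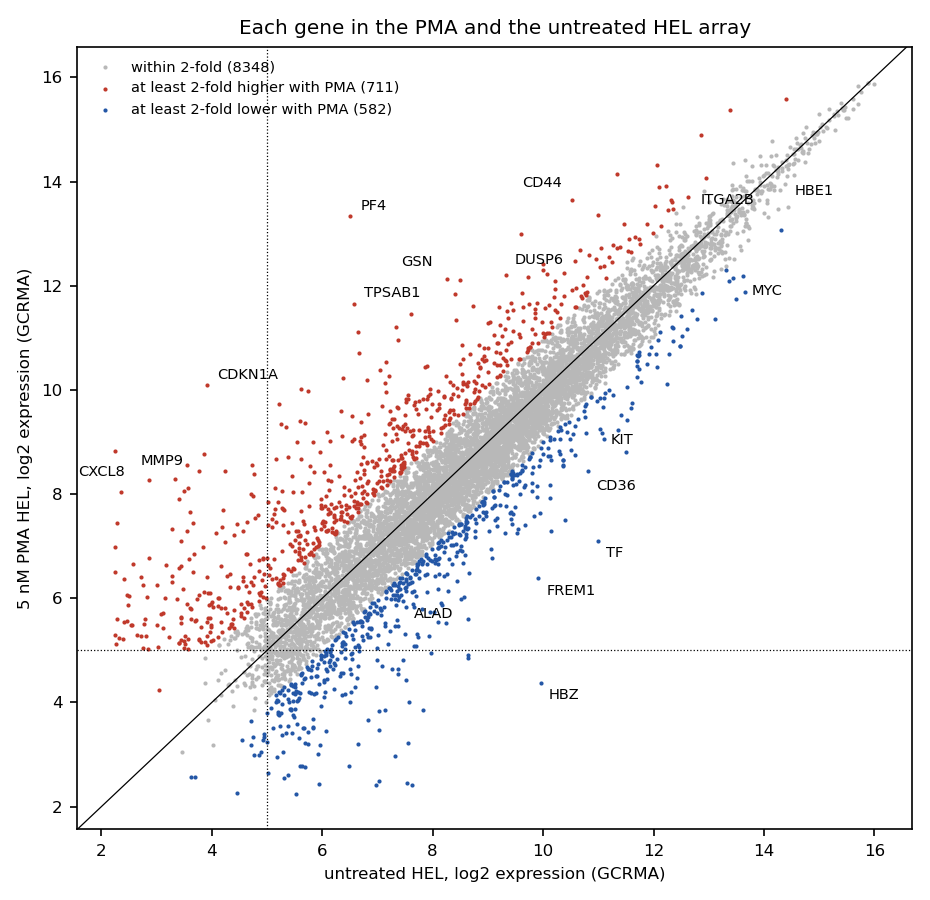
Log2 expression of each of 9641 genes in the 5 nM PMA array (vertical axis) against the untreated array (horizontal axis) of HEL cells, 1 array each. The 711 genes at least 2-fold higher with PMA are red, the 582 at least 2-fold lower are blue, the dotted lines mark a log2 value of 5, and PF4, CDKN1A and HBZ lie far from the diagonal.

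The only repeat in the series is the pair of untreated K562 arrays, and it shows how far 2 arrays of untreated cells can lie apart. Over the same 9641 genes, 689 were at least 2-fold apart between them in either direction (7.15%), against 1293 between the PMA and the untreated HEL array (13.4%). At 4-fold the counts were 312 genes for PMA in HEL and 72 for the K562 pair, and at 8-fold 104 and 14. The share past 2-fold in HEL was 19.3% among genes with a mean level of 5 to 7 and 6.81% among those at 11 or more, against 14.2% and 2.13% in the K562 pair. A single difference near 2-fold, above all at a low level, is therefore within what 2 untreated arrays also showed. Of the genes at least 2-fold higher with PMA in HEL, 13.5% were also 2-fold apart in the untreated K562 pair, and of those at least 2-fold lower, 10.8%. Whether the K562 pair came from separate cultures is not stated, and its spread may not be that of HEL.

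**Figure D2:**
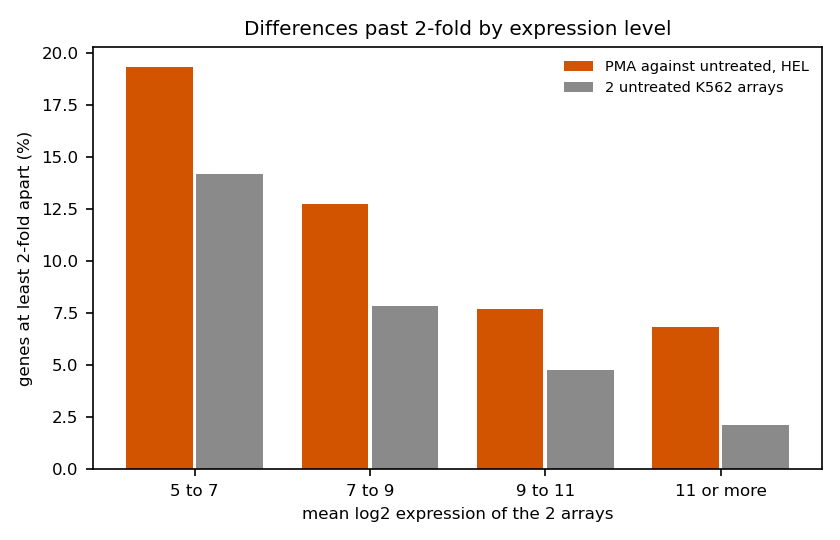
Percent of genes at least 2-fold apart (vertical axis, from 0) by mean log2 expression of the 2 arrays (horizontal axis), for PMA against untreated HEL (orange) and for the 2 untreated K562 arrays (gray). Genes with a mean under 5 are left out. The orange bars are above the gray ones at every level, with 19.3% against 14.2% at 5 to 7 and 6.81% against 2.13% at 11 or more.

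Megakaryocyte and platelet genes held the largest difference of the comparison. PF4, the platelet alpha-granule chemokine platelet factor 4, was at a log2 value of 13.34 in PMA-treated and 6.50 in untreated HEL cells, a difference of 6.84 or 115-fold. PPBP, which encodes the precursor of several platelet chemokines, was at 8.12 with PMA and under the minimum of 5 without, a difference of at least 3.12. ITGA2, the collagen-binding integrin subunit alpha 2, was at 8.57 with PMA against 4.72 (at least 3.57). The platelet collagen receptor GP6 was at 9.12 with PMA against 6.36 without (2.77), and the tetraspanin CD9 at 7.71 against 5.30 (2.41). In bulk RNA, more cells of a kind and more RNA per cell cannot be told apart.

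Parts of the von Willebrand factor receptor were higher by less. GP1BA was at 10.81 in PMA-treated and 8.92 in untreated cells (1.88), and GP9 at 9.0 and 7.78 (1.22). GP5, the associated subunit, differed by 0.27. The 2 probe sets that the subunit GP1BB shares with other loci differed by 0.80 and -0.50, the latter under 5 on both arrays. The fibrinogen receptor, formed by ITGA2B and ITGB3, was already at a high level in untreated HEL cells. ITGA2B was at 13.29 with PMA against 13.01 (0.28), and ITGB3 at 10.38 against 9.51 (0.87), both under 2-fold. The granule protein multimerin MMRN1 (2.01), P-selectin SELP (1.87), the secretory GTPase RAB27B (1.56), the myosin light chain kinase MYLK (1.27), ANGPT1 (1.14) and the granule proteoglycan SRGN (1.04) completed the genes at least 2-fold higher. In the opposite direction, CD36, a thrombospondin and fatty acid receptor of platelets and of erythroid precursors, was at 8.45 with PMA against 10.82 without (-2.37). Of 42 listed genes 32 were measured, of which 13 were at least 2-fold higher and 1 lower, against 7.37% and 6.04% of all genes, with a median difference of 0.63. The 2 untreated K562 arrays were 2-fold apart on 2 of these 32 genes.

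**Figure D3:**
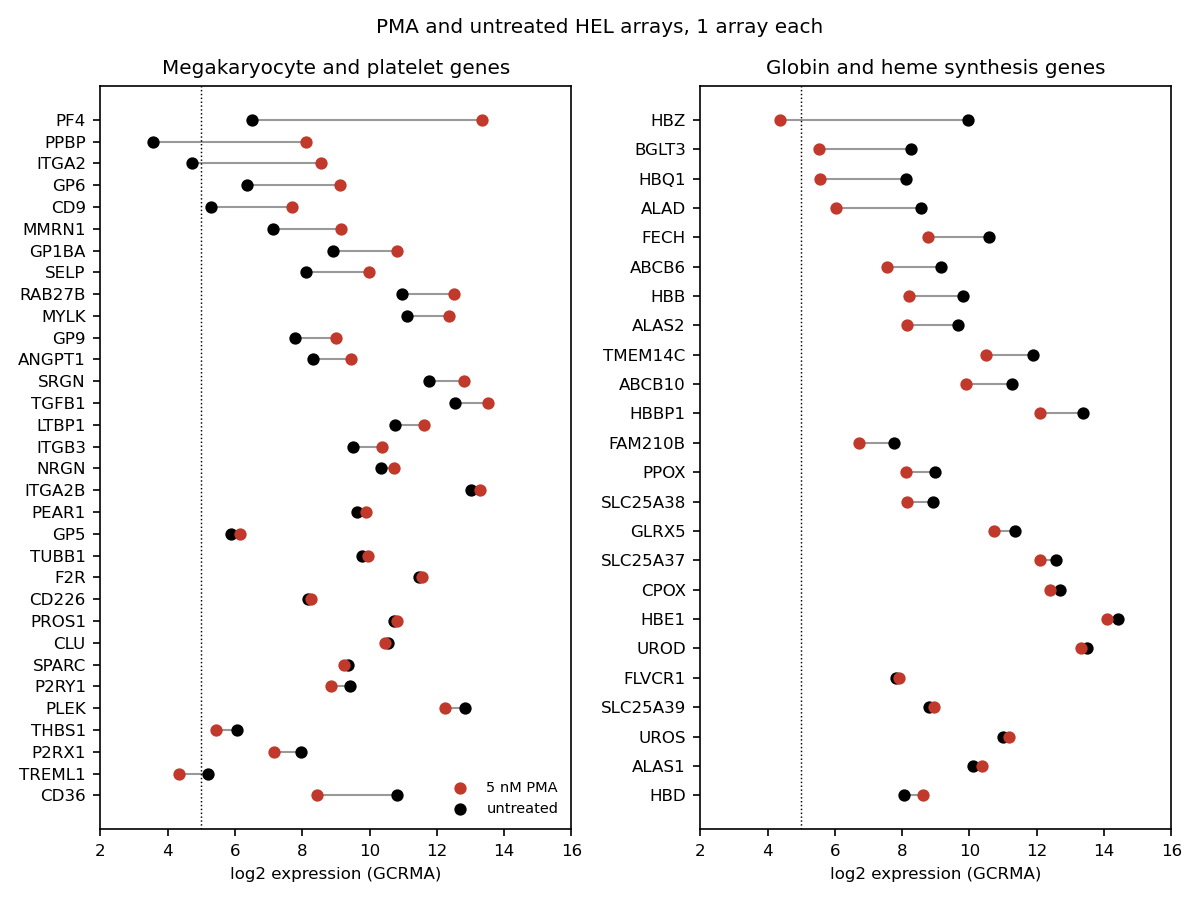
Log2 expression (horizontal axis) of the 32 measured megakaryocyte and platelet genes (left) and of 24 globin and heme synthesis genes (right) in HEL cells with 5 nM PMA (red) and untreated (black), 1 array each, with a line joining the pair and a dotted line at 5. PF4 at the top left lies at 13.34 with PMA and 6.50 without, and HBZ at the top right lies at 4.38 with PMA and 9.96 without.

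Most transcription factors of both lineages stayed close to their untreated level. GATA1, the shared erythroid and megakaryocytic regulator, was at 11.32 in PMA-treated and 11.52 in untreated cells, and its relative GATA2 at 11.84 and 12.08. FLI1, an ETS factor of megakaryocyte genes, was at 12.02 and 12.14, TAL1 at 12.21 and 12.06, and NFE2 at 12.05 and 12.32. Of 24 measured hematopoietic factors, 2 were at least 2-fold higher, GFI1B (1.17), a repressor needed in both lineages, and CEBPD (1.18), a myeloid factor. The 2 that were at least 2-fold lower were KLF1, the erythroid activator of globin and heme genes, at 9.84 with PMA against 11.11 without (-1.27), and IKZF1, the lymphoid factor Ikaros, at 8.52 against 9.82 (-1.30). These are 8.33% in each direction, near the 7.37% and 6.04% of all genes, and the untreated K562 arrays were 2-fold apart on 2 of the 24. The median of the list was -0.09. KLF1 also differed by -1.38 between the untreated K562 arrays, so its difference is not larger than that pair showed.

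RUNX1, a further megakaryocytic regulator, has 10 probe sets that the annotation shares with other loci, so no single value for it is given. Their differences ran between -0.12 and 2.57. The 2.57 came from a dim probe set, at 5.66 with PMA against 3.09, and all the others lay between -0.12 and 0.90, under 2-fold. The brightest was at 11.12 against 11.08 (0.04).

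Many erythroid genes were lower with PMA. Zeta globin, HBZ, the embryonic alpha-like chain, was at 4.38 in PMA-treated and 9.96 in untreated HEL cells, a difference of at least -4.96 counted from 5. HBQ1, theta globin, was at 5.55 with PMA against 8.11 (-2.56). The 6 probe sets shared by the adult alpha globin genes HBA1 and HBA2 were at 11.66 to 12.76 with PMA against 14.77 to 15.24 without, differences of -3.11 to -2.48. All the measured genes of the alpha-like cluster on chromosome 16 were therefore lower. In the beta-like cluster on chromosome 11 the picture was mixed. The noncoding transcript BGLT3 was at 5.52 with PMA against 8.25 (-2.72), and the pseudogene HBBP1 at 12.08 against 13.37 (-1.28). HBB, adult beta globin, was at 8.21 against 9.80 (-1.59), with its 3 probe sets between -1.59 and -0.78. Epsilon globin HBE1 was at 14.10 against 14.41 (-0.31), delta globin HBD at 8.62 against 8.06 (0.56), and the 3 probe sets shared by the gamma globins at 15.25 to 15.51 against 15.36 to 15.65. The gamma probe sets lie near the top of the scale (15.90 with PMA and 15.99 untreated), where a change can be compressed.

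Globin levels also moved between untreated cells. Of 13 listed globin genes and chaperones, 7 were measured with a probe set of their own. With PMA in HEL 5 were at least 2-fold lower (71.4%, against 6.04% of all genes) and 0 higher, with a median of -1.59. The 2 untreated K562 arrays were themselves 2-fold apart on 5 of the 7, with a median of -1.63 for array 2 minus array 1. In that pair HBZ differed by -2.66, HBB by -2.29, and the alpha globin probe sets by -2.18 to -1.80, while HBQ1 (-0.03) and BGLT3 (-0.18) differed little. HBZ, HBQ1, BGLT3 and the alpha globin probe sets thus differed more with PMA in HEL than between untreated K562 arrays, and HBB and HBBP1 did not. Whether untreated HEL cells vary in the same way cannot be seen from 1 array.

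Of the genes of heme synthesis and mitochondrial iron transport, 17 of 20 were measured. With PMA 7 of them were at least 2-fold lower (41.2%, against 6.04% of all genes) and 0 higher, with a median of -0.77. The K562 pair was 2-fold apart on 3 of the 17, with a median of -0.02. ALAD, the second enzyme of heme synthesis, was at 6.02 in PMA-treated and 8.57 in untreated cells (-2.54). FECH, which inserts the iron in the last step, was at 8.76 against 10.58 (-1.82), and the mitochondrial transporter ABCB6 at 7.55 against 9.16 (-1.62). ALAS2, the erythroid form of the first enzyme, was at 8.14 against 9.66 (-1.52, beside -1.37 between the untreated K562 arrays), whereas ALAS1, the form used in other tissues, was at 10.36 against 10.10 (0.26). TMEM14C (-1.38), ABCB10 (-1.37) and FAM210B (-1.04), all of the mitochondrial handling of heme precursors, were lower as well. UROS, UROD and CPOX, enzymes of the middle steps, differed by 0.18, -0.18 and -0.32.

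Of 33 listed genes of the red cell membrane and surface 23 were measured, and 6 were at least 2-fold lower and 1 higher, with a median of -0.60. The share lower was 26.1%, against 6.04% of all genes, and the untreated K562 arrays were 2-fold apart on 3 of the 23. Those lower were ERMAP, an erythroid membrane protein of the immunoglobulin family (4.55 with PMA against 7.36, at least -2.36), the adducin ADD2 (3.45 against 6.07, at least -1.07), the membrane anchor ankyrin ANK1 (9.17 against 11.07, -1.90), the Rh-associated channel RHAG (11.89 against 13.66, -1.77), the transferrin receptor TFRC (12.15 against 13.44, -1.30) and the Kx protein XK (10.55 against 11.70, -1.15). The 7 probe sets of ANK1, 3 of RHAG and 3 of TFRC were all lower. The gene at least 2-fold higher was CD44, the hyaluronan receptor that also carries a blood group, at 13.66 in PMA-treated and 10.53 in untreated cells (3.13), with its 8 probe sets between 3.13 and 7.41. CD44 is not limited to red cells and falls during their maturation. RHEX, a regulator of erythroid expansion, was at 7.29 with PMA against 10.14 (-2.85), and TF, transferrin, at 7.11 against 10.99 (-3.88), the largest decrease among genes measured on both arrays.

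To show the sequence upstream of erythroid genes that were lower, the 250 bases before the start of 3 of them are printed, with a GATA motif in capitals. These genes were picked after their values were seen, as the members of the erythroid gene lists at least 2-fold lower whose window holds AGATAA or TGATAA on either strand (TTATCT or TTATCA on the other). They come from RefSeq on GRCh38.p14, all on the minus strand, at chr6:49636840-49637089 (RHAG), chrX:55030978-55031227 (ALAS2) and chr19:12887202-12887451 (KLF1), and the first base of the motif printed lies 31, 127 and 66 bases before the start.
RHAG: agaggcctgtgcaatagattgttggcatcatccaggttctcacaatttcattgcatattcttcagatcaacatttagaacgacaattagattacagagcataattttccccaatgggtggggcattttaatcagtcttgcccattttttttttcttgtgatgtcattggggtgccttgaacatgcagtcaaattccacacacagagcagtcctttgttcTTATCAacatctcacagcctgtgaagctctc
ALAS2: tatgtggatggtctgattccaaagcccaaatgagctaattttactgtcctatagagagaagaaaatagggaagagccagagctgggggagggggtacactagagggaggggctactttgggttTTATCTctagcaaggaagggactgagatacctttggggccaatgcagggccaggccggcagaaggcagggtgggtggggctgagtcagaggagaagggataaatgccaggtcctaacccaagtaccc
KLF1: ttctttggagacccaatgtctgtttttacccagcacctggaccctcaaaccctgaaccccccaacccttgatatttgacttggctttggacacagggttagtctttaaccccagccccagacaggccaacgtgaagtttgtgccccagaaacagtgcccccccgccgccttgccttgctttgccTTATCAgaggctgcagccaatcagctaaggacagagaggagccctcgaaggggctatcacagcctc
Of 68 named genes at least 2-fold lower with PMA, 51 had a window, and 7 of these hold the motif. In windows of 300 bases, which run 50 bases past the start, the GATA motif was in 41 of 453 genes at least 2-fold lower (9.05%), in 56 of 547 at least 2-fold higher (10.2%) and in 642 of all 8047 genes with a window (7.98%). Among genes at least 4-fold different it was in 12 of 76 lower (15.8%) and 14 of 160 higher (8.75%). Over all 27305 windows of the table the share was 16.6%. The motif is short, and a match is a description of these letters only.

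**Figure D4:**
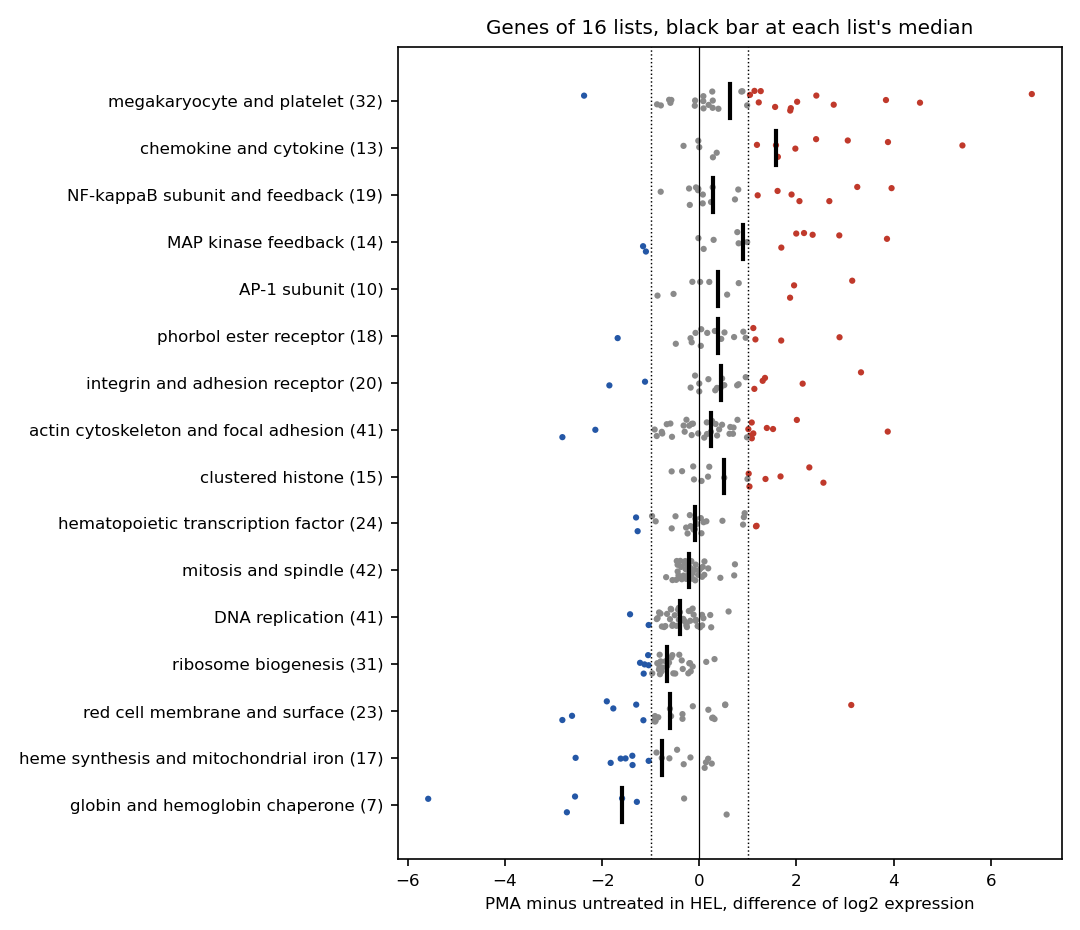
Differences of log2 expression, PMA minus untreated HEL (horizontal axis), for the genes of 16 lists, with the number of measured genes in parentheses. Each point is a gene (red at least 2-fold higher, blue at least 2-fold lower, gray between), the black bar is the list's median and the dotted lines mark 2-fold. The globin median lies at -1.59, and the chemokine and cytokine median at 1.58, which was 0.22 when genes under 5 were kept.

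The receptors of phorbol esters come first in the PMA signal. Of 18 measured genes with phorbol ester binding domains or closely tied to them, 4 were at least 2-fold higher (22.2%, against 7.37% of all genes) and 1 lower, UNC13B, which differed by -0.85 counted from 5. The untreated K562 arrays were 2-fold apart on 3 of the 18. RASGRP3, a Ras activator that binds phorbol esters, was at 9.02 in PMA-treated and 6.14 in untreated cells (2.89). Its relative RASGRP2, known from platelets, was at 10.59 against 8.90 (1.69, beside 1.60 between the untreated K562 arrays). The kinase isoform PRKCD, which needs no calcium, was at 8.99 against 7.83 (1.16), while the classical isoform PRKCB was at 10.66 against 10.83 and PRKCQ at 10.38 against 10.53. PRKCA and PRKCE stayed under the minimum of 5 in all HEL arrays.

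Feedback genes of the MAP kinase cascade were among the larger differences. DUSP5, a nuclear phosphatase that removes the activating phosphates of ERK, was at 11.47 with PMA against 7.60 without (3.86), and DUSP6, its cytoplasmic counterpart, at 12.21 against 9.33 (2.88), with 3 probe sets between 2.72 and 3.24. DUSP1 was at 10.86 against 8.52 (2.33), although its 2 probe sets gave 0.41 and 2.33. PHLDA1 (2.16) and the Ras pathway inhibitor SPRY1 (2.0) were higher as well. DUSP4 was at 5.19 against 3.50, which as a bound from 5 is only 0.19, and SPRED2 was lower (-1.10). In all, 6 of 14 feedback genes were at least 2-fold higher (42.9%) and 2 lower (14.3%), against 7.37% and 6.04% of all genes. The median of the list was 0.90. The untreated K562 arrays were 2-fold apart on 2 of the 14, with PHLDA1 at -1.95 for array 2 minus array 1.

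At 48 h the immediate early genes showed a mixed state. FOS was at 7.52 in PMA-treated and 7.51 in untreated cells, JUN at 7.24 and 7.77, and EGR1 at 14.50 and 13.93. Of the AP-1 subunits, FOSB (6.99 against 3.84, at least 1.99), FOSL1 (9.31 against 7.36, 1.95) and MAFF (11.18 against 9.31, 1.87) were at least 2-fold higher, 3 of 10 measured, and 0 were lower. In the early response list, 4 of 17 were higher, led by the RNA-binding protein ZFP36L1 at 11.34 against 8.43 (2.91), and 1 was lower, KLF6 at 4.35 against 5.94, beside 7.37% and 6.04% of all genes. Counted from 5, IER3 among those higher differed by 0.19 and KLF6 by -0.94, both short of 2-fold. The untreated K562 arrays were 2-fold apart on 3 of the 10 AP-1 and 3 of the 17 early response genes. For NF-kappaB, several inhibitors and members of the second pathway were higher. TNFAIP3, a ubiquitin-editing brake of the pathway, was at 9.38 with PMA against 6.71 (2.68), NFKBIE at 7.67 against 5.61 (2.06), NFKB2 at 7.96 against 6.06 (1.90) and NFKBIA at 10.15 against 8.54 (1.61). RELB was at 6.37 and TRAF1 at 6.26 with PMA, both under 5 without (at least 1.37 and 1.26). The subunits NFKB1 (0.07) and RELA (0.24) differed little. Of 19 genes, 7 were at least 2-fold higher (36.8%, against 7.37% of all genes) and 0 lower, and the median was 0.28. The untreated K562 arrays were 2-fold apart on 3 of the 19.

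Of 13 measured genes of secreted chemokines and cytokines, 8 were at least 2-fold higher (61.5%, against 7.37% of all genes) and 0 lower. Their median difference was 1.58. Of 49 listed genes only 22 had a probe set naming 1 gene, and 13 of these reached 5 in a HEL array, all 13 with PMA and 10 in untreated cells. The count and the median describe those that passed this filter, and the median was 0.22 when genes under 5 were kept. The untreated K562 arrays were 2-fold apart on 2 of the 13. One of the 8, TNFSF9, differed by 0.89 counted from 5. CXCL8, the neutrophil chemokine interleukin 8, was at 8.28 in PMA-treated and 2.86 in untreated cells (at least 3.28), and CXCL3 at 11.22 against 7.33 (3.88). CXCL2 was at 10.72 against 9.14 (1.58). These 3 genes lie with PF4 and PPBP on chromosome 4, where the CXC chemokines form a cluster. CSF1, the macrophage growth factor, was at 8.67 against 5.61 (3.06), IL1B at 12.41 against 10.01 (2.40) and TNF at 9.93 against 7.95 (1.98). MIF and IL18 differed by -0.02 and 0.28.

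Genes of proteolysis at the cell surface followed. MMP9, gelatinase B, was at 8.45 with PMA against 3.77 without (at least 3.45), PLAUR, the urokinase receptor, at 8.80 against 5.97 (2.83), and the inhibitor TIMP1 at 12.60 against 10.83 (1.76). The 3 probe sets of PLAUR ran between 1.19 and 2.83. MMP14 was at 6.18 against 3.49 (at least 1.18). SERPINE2 (-1.62) and the membrane protease ADAM9 (-1.12) were lower. ECM1, an extracellular matrix protein, was at 8.77 in PMA-treated and 3.87 in untreated cells (at least 3.77).

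AP-1 binds the letters TGACTCA, or TGAGTCA read on the other strand. Of 98 named genes at least 2-fold higher with PMA, 72 had a promoter window in RefSeq, and 5 of these hold the motif, so their 250 bases before the start are printed with it in capitals. They lie on GRCh38.p14 at chr1:150507859-150508108 (ECM1) and chr4:73740319-73740568 (CXCL8) on the plus strand, and at chr19:43670170-43670419 (PLAUR), chr2:85414017-85414266 (CAPG) and chr12:55729010-55729259 (CD63) on the minus strand. The first base of the motif lies 78 bases before the start in ECM1, 137 in CXCL8, 186 in PLAUR, 59 in CAPG and 129 in CD63.
ECM1: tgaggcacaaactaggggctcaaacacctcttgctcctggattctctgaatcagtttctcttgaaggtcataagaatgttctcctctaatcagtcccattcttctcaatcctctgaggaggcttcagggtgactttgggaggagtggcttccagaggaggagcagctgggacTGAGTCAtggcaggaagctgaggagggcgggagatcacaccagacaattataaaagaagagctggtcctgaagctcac
CXCL8: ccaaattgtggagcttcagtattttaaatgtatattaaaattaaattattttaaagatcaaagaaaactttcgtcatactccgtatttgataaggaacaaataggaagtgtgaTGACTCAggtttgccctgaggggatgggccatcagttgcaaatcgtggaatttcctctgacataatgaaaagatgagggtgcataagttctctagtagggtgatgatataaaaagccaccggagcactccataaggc
PLAUR: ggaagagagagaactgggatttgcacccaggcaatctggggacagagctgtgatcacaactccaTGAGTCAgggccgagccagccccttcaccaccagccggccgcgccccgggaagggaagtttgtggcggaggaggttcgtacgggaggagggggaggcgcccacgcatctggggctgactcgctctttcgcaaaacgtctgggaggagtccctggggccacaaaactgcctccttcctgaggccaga
CAPG: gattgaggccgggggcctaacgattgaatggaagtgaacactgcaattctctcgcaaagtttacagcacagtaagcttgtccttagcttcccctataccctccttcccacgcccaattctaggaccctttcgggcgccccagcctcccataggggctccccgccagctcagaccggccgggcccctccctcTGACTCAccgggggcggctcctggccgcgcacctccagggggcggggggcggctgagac
CD63: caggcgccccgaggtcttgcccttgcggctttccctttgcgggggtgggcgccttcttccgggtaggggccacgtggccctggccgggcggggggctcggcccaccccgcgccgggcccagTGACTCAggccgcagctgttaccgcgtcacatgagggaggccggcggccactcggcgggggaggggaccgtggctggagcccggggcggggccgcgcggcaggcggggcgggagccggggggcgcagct
In the windows of 300 bases the motif was in 27 of 547 genes at least 2-fold higher (4.94%) and in 11 of 160 at least 4-fold higher (6.88%). It was in 12 of 453 genes at least 2-fold lower (2.65%), in 0 of 76 at least 4-fold lower, in 218 of all 8047 genes with a window (2.71%) and in 1344 of the 27305 windows of the table (4.92%). These shares carry no test. The 11 genes include CXCL8, ECM1, PLAUR and CAPG. Further members, named after their values were seen, are SLAMF8 (3.68) and SLAMF9 (2.65), receptors of the SLAM family, GBP3 (2.44), VEPH1 (2.78) and S100A2 (2.65). These differences and the shares take values under 5 as listed. SLAMF8 was at 6.41 with PMA against 2.72, and S100A2 at 5.29 against 2.64. Counted from 5, SLAMF8 fell short of 4-fold and S100A2 short of 2-fold.

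Adhesion and the cytoskeleton were higher in part. Integrin alpha 9, ITGA9, was at 8.71 in PMA-treated and 5.39 in untreated cells (3.33), ITGA5, the fibronectin receptor subunit, at 9.72 against 8.59 (1.13), and the tetraspanins CD82 and CD63 were higher by 1.35 and 1.31. ITGA4 (-1.12) and the selectin ligand SELPLG (-1.85) were lower, and ITGB1 was at 12.80 in both. The 2 probe sets of SELPLG gave -1.85 and -0.75. Of 20 measured integrin and adhesion genes, 5 were at least 2-fold higher (25.0%) and 2 lower (10.0%), against 7.37% and 6.04% of all genes. Their median was 0.46, and the untreated K562 arrays were 2-fold apart on 3 of the 20. The actin-severing protein gelsolin, GSN, was at 12.13 with PMA against 8.25 (3.88), with its 2 probe sets at 3.88 and 4.12, and its relative CAPG at 9.84 against 7.83 (2.01). Focal adhesion proteins followed by less, with ZYX at 1.39, VCL at 1.11, LASP1 at 1.08 and ACTN1 at 1.05. Nonmuscle myosin split, with MYH9 at 10.36 against 9.27 (1.08) and MYH10 at 9.22 against 11.36 (-2.14). Loss of MYH10 is a known feature of maturing megakaryocytes. Of 41 actin genes, 9 were at least 2-fold higher (21.95%) and 2 lower (4.88%), against 7.37% and 6.04% of all genes (median 0.24). But the untreated K562 arrays were 2-fold apart on 8 of the 41, which leaves only the larger of these differences beyond that spread. Tubulins differed little, with 1 of 13 higher and 1 lower, or 7.69% each way, near the share of all genes.

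The cell cycle inhibitor CDKN1A, p21, had one of the largest differences, at 10.10 in PMA-treated and 3.92 in untreated cells (at least 5.10). The proliferation genes stayed near their untreated level. Of 42 genes of mitosis and the spindle, 0 were at least 2-fold different, and the median was -0.22. The kinase CDK1 was at 12.11 with PMA against 11.93, MKI67, a marker of cycling cells, at 10.18 against 10.07, and CCNB1 at 10.78 against 10.86. Of 41 genes of DNA replication, 2 were lower, MCM3 (10.94 against 12.36, -1.42) and POLA1 (7.85 against 8.90, -1.04), and 0 higher, with a median of -0.40 and 34 of the 41 below 0. The 2 genes lower are 4.88% of the list, against 6.04% of all genes. MYC was at 12.18 with PMA against 13.62 without (-1.44), CDKN1B, the p27 inhibitor, at 9.15 against 10.53 (-1.38) and SKP2, which marks p27 for decay, at 9.31 against 10.58 (-1.28). On the other side, MYCN was at 8.55 against 3.54 (at least 3.55), the MYC antagonist MXD1 at 8.95 against 6.71 (2.24), and cyclin D1, CCND1, at 7.33 against 3.28 (at least 2.33). Ribosome biogenesis genes, many of them targets of MYC, were below 0 in 29 of 31, with a median of -0.66. Of the 31, 5 were at least 2-fold lower (16.1%, against 6.04% of all genes), among them UTP15 (-1.22), MYBBP1A (-1.14) and RRP12 (-1.13). Of these 5, UTP15, NOP16 and POLR1A each also had a probe set under 2-fold (-0.49, -0.48 and -0.38). The K562 pair was 2-fold apart on 4 of the 31, with a median of -0.12. RRP12 differed by -1.22 in that pair, so its difference with PMA is not larger than the pair showed.

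Of 15 measured clustered histone genes, 6 were at least 2-fold higher (40.0%, against 7.37% of all genes) and 0 lower, and the untreated K562 arrays were 2-fold apart on 1. One of the 6, H2BC21, differed by 0.62 counted from 5. The median was 0.51, and it was 0.21 with genes under 5 kept and 1.19 with a minimum of 6. The linker histone H1-2 was at 11.31 in PMA-treated and 9.04 in untreated cells (2.27), H2BC12 at 12.72 against 11.05 (1.67), H2AC6 at 7.71 against 5.15 (2.56) and H2BC6 at 8.65 against 7.29 (1.36). Histone genes of one type are near-identical in sequence, so probe sets can read several of them. H2AC6 was higher by 1.66 and H2BC12 by 0.81 in the DAC array as well, measured against the same untreated array, and the differences share that array.

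Several other genes with the largest differences on both arrays belong to secretory granules, membranes and signaling. TPSAB1 and TPSB2, mast cell and basophil tryptases, were at 11.66 and 9.98 with PMA against 6.57 and 5.73 without (5.09 and 4.25). Their sequences are near-identical, so the source of the signal between them is uncertain. WNT11 was at 9.73 against 5.21 (4.52), the tetraspanin-like TM4SF1 at 11.12 against 6.64 (4.48), the adaptor SORBS2 at 10.01 against 5.61 (4.40) and the adaptor LAT2 at 10.23 against 6.38 (3.86). PPP1R16B, a subunit of protein phosphatase 1 (4.04), AMPD3, the AMP deaminase of red cells (3.82), and IGFBP4 (3.67) were higher as well. STAB1 had 4.09 for its brightest probe set, but its 3 probe sets ran between 0.19 and 4.09. TMEM158 was at 8.83 and the kinase PKDCC at 8.44 with PMA, both under 5 without (at least 3.83 and 3.44).

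Among the largest decreases, the enzyme ST6GALNAC1, which adds sialic acid to O-glycans, was at 5.61 in PMA-treated and 8.64 in untreated cells (-3.03), the matrix protein FREM1 at 6.38 against 9.91 (-3.53), and the receptor for neuropeptide Y, NPY1R, at 7.50 against 10.39 (-2.90). IL1RL1, the receptor for interleukin 33, was at 5.09 against 7.69 (-2.61), with 3 probe sets between -3.54 and -2.52. The apelin receptor APLNR (at least -3.65), CRISP3 (-3.64), DEPTOR, an inhibitor of the kinase mTOR (-2.82), and MPDZ (-2.63) were under 5 with PMA, and the values in parentheses are bounds.

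Smaller counts came from the lists of survival, cytokine and lipid genes. BCL2A1, an antiapoptotic BCL2 relative, was at 6.98 in PMA-treated and 2.25 in untreated cells (at least 1.98), and BNIP3 was at 10.11 against 12.25 (-2.13). They were the only members of 12 past 2-fold, 8.33% each way, near the 7.37% and 6.04% of all genes. In the list of JAK-STAT components and targets, PIM1 was at 9.65 against 11.60 (-1.95), KIT, the stem cell factor receptor, at 9.25 against 11.04 (-1.79), SOCS2 at 7.94 against 9.12 (-1.18) and CSF2RB at 10.66 against 11.72 (-1.06), while STAT4 was at 7.41 against 5.28 (2.12), and the K562 pair was 2-fold apart on 0 of these 25 genes. In the leukotriene branch, LTC4S was at 9.19 with PMA against 6.08 (3.11) and ALOX5 at 7.64 against 9.94 (-2.30). ID2, an inhibitor of basic helix-loop-helix factors, was at 14.89 against 12.85 (2.04) and VEGFA at 12.47 against 10.57 (1.90). Of 11 measured VEGF and angiopoietin genes, the K562 pair was 2-fold apart on 1. With PMA in HEL 4 of them were at least 2-fold higher (36.4%) and 3 lower (27.3%), against 7.37% and 6.04% of all genes. Of those higher, HBEGF and FLT1 differed by only 0.12 and 0.54 counted from 5. Among those lower were HGF (at least -1.65) and ANGPT2 (at least -1.23). TYROBP and FCER1G, signaling adaptors shared by myeloid cells and platelets, were at 11.61 and 11.07 against 8.74 and 9.56 (2.87 and 1.5). The monocyte and granulocyte list had 4 of 9 higher (44.4%, against 7.37% of all genes), although the K562 pair was 2-fold apart on 5 of the 9. Interferon-stimulated genes had a median of 0.00, with 3 of 26 higher (11.5%) and 2 lower (7.69%), beside 7.37% and 6.04% of all genes. Among those higher IFI6 differed by 0.45 counted from 5, and the K562 pair was 2-fold apart on 3 of the 26.

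The same dose and time of PMA was also given to K562 cells, measured as 1 array against the mean of 2 untreated arrays. There, 1437 of the same genes were at least 2-fold higher (14.9%) and 1642 at least 2-fold lower (17.0%). Of the genes higher in HEL, 378 were also higher in K562, which is 53.2% of the HEL and 26.3% of the K562 genes. Of those lower in HEL, 232 were also lower in K562, which is 39.9% of the HEL and 14.1% of the K562 genes. In opposite directions were 21 of the genes higher in HEL and 30 of those lower. Across genes, which are not independent, Pearson's r between the differences of the lines was 0.44 and Spearman's rho 0.45. Whether the lines differ could not be tested, so the following values are side by side only.

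Genes of the cell cycle had far apart values in the 2 lines. In HEL the median of the mitosis list was -0.22 with 0 of 42 genes at least 2-fold lower, and in K562 it was -3.60 with 40 of 42. For DNA replication the medians were -0.40 in HEL and -2.71 in K562, with 2 and 38 of 41 lower, and for ribosome biogenesis -0.66 and -1.36. CDK1 differed by 0.18 in HEL and by -3.50 in K562, MKI67 by 0.10 and -4.47. CDKN1A was higher in both lines, by at least 5.10 in HEL and by 4.52 in K562. NF-kappaB genes had a median of 0.28 in HEL and 1.91 in K562, and chemokines and cytokines 1.58 and 4.53. DUSP6 was higher by 2.88 in HEL and by 0.25 in K562, where it was under 5 on all 3 arrays. PF4 was listed at the lowest value of 2.25 on the PMA and on both untreated arrays of K562. ITGB3 was higher by 0.87 in HEL, where the untreated level was 9.51, and by 9.82 in K562.

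**Figure D5:**
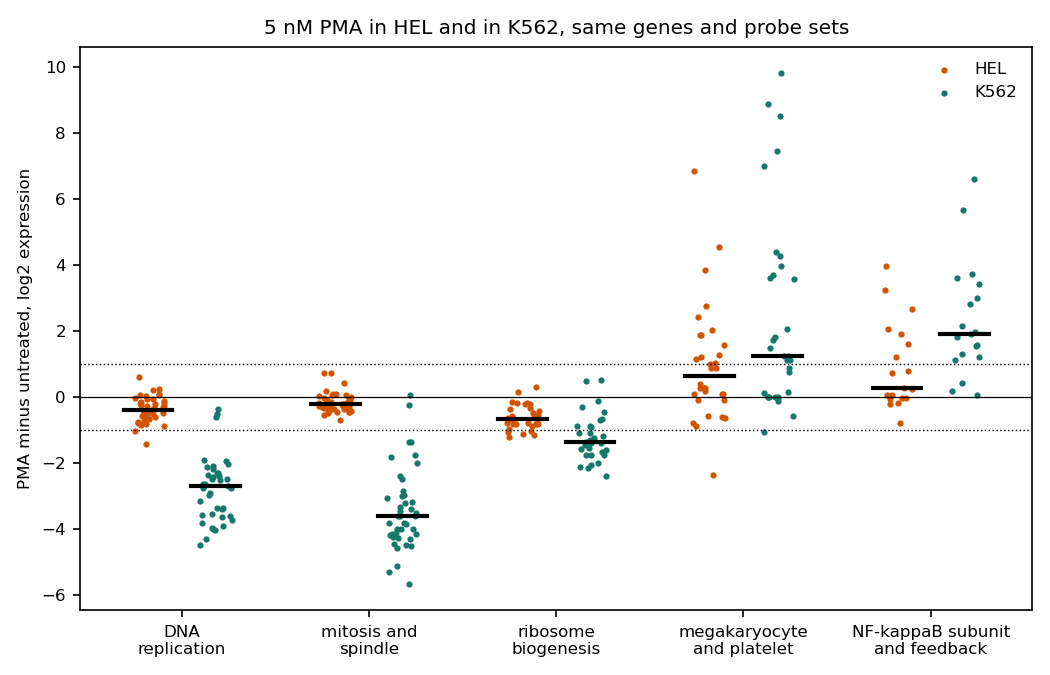
Difference of log2 expression between PMA and untreated cells (vertical axis) for the genes of 5 lists (horizontal axis) in HEL (orange, left of each pair) and K562 (green, right), on the same probe sets. Points are genes, black bars medians and dotted lines 2-fold. For mitosis genes the median is -0.22 in HEL and -3.60 in K562, and for megakaryocyte and platelet genes 0.63 and 1.25.

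DAC in HEL was measured against the same untreated array, so its differences share that array's errors with those of PMA. With 20 nM DAC, 102 genes were at least 2-fold higher and 152 lower. For the genes the comparison turns on, PF4 differed by 6.84 with PMA and by 0.89 with DAC, HBZ by at least -4.96 and by 1.12, GSN by 3.88 and 0.34, DUSP5 by 3.86 and 0.63, and ALAS2 by -1.52 and 0.50. CDKN1A was at 10.10 with PMA, 5.70 with DAC and 3.92 untreated.

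The labels of the cells were checked against lineage markers. Of 9 erythroid markers, 7 had a measured gene, and 6 of them were above 5 in the PMA and all 7 in the untreated array, with TAL1, GATA1 and HBE1 above 11 in both. Of 12 T and NK cell markers, 6 had a probe set naming 1 gene, and 3 of these reached 5 in a HEL array. The same 3 counts were 9, 3 and 2 for B and plasma cells and 9, 4 and 1 for fibroblasts. For epithelium they were 8, 4 and 2, and for neutrophil granules 8, 2 and 1. Of 10 monocyte and macrophage markers 0 had such a probe set, so these markers could not be checked. Of the 3 measured T and NK cell markers, CD3D was under 5 on both arrays. CD4 was at 6.96 with PMA against 8.10 untreated (-1.14), and CD2 at 3.32 against 5.58 (at least -0.58). Of 8 endothelial markers 6 were measured, of which CDH5, ROBO4 and KDR were at least 2-fold higher (6.10, 6.75 and 8.25 with PMA against 3.97, 4.93 and 7.10) and TEK was lower (5.15 against 6.35), while PECAM1 (12.11 against 11.30) and TIE1 (11.92 against 11.41) were high on both. KRT18 (1.18) and the granule gene LTF (1.42) were higher too, and the part of such cells in the differences above was not tested. The medians of all 27306 probe sets were 6.71 on the PMA and 6.71 on the untreated array.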

How the data were processed

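mRNA of HEL and K562 cells was measured on Affymetrix arrays. The authors of the series deposited log2 expression values per probe set, which their processing notes credit to GCRMA (no version given), a method that corrects background from probe sequence, normalizes arrays by quantiles and summarizes probes. A shift shared by most genes is thereby removed. The table holds 27306 probe sets, of which 22858 name 1 gene, 1164 several and 3284 are not listed in the annotation. Probe sets with 1 gene and at least 5 in 1 of 3 HEL arrays were kept (16962) and the brightest taken for each of 9641 genes, in Python 3.11.15 with pandas 2.3.3. Differences are the PMA minus the untreated array, called at 2-fold, with 1 array a side and no test. The number of arrays limits the precision.

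The 196 named genes were taken by rule. They are the 15 largest differences each way with both arrays at 5 and one at 7 or more. Added to these are the 10 brightest genes each way under 5 on the other array. Up to 5 members with the largest differences come from each of 29 gene lists and 8 marker lists. The text prints only part of these genes, beside other list members that a sentence needed. The antigen presentation and cholesterol lists are not described. The members and lists were chosen with earlier results of these data known. Promoter windows come from RefSeq (GRCh38.p14). Alternatives were quantile normalization, centring, filters, other probe set rules and other folds.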

Additional observations from a re-analysis of the deposited data

Results flagged for a closer look

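Of the 196 named genes, 7 had measured differences of at least 2-fold in opposite directions, lower with PMA in HEL and higher with PMA in K562, when values under the minimum of 5 are taken as listed. In K562 the PMA array was above both untreated arrays for each of them. The difference between the lines was not tested, since HEL has 1 array a condition. MARCHF2, a membrane ubiquitin ligase, differed by -2.64 in HEL and by 2.32 in K562. The apelin receptor APLNR differed by -3.80 (at least -3.65 counted from 5) in HEL and by 1.25 in K562, and CFAP210, a protein of cilia, by -5.08 (at least -2.53 counted from 5) and 4.71. HBB, adult beta globin, differed by -1.59 in HEL and by 1.74 in K562, where its 2 untreated arrays were themselves -2.29 apart. In HEL the 3 probe sets of HBB ran between -1.59 and -0.78. The early response factor KLF6 differed by -1.59 and 2.14, with 4.35 on the PMA and 5.94 on the untreated HEL array, which is only -0.94 counted from 5. PSMB9, an immunoproteasome subunit, differed by -1.04 and 1.74, but in K562 it was at 5.04 with PMA against 3.03 and 3.58 untreated, so no 2-fold difference above the minimum was measured there. The phospholipase PLA2G4A differed by -1.32 and 1.07.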

How the results depend on the processing

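Under 8 alternatives (quantile normalization, centring on the median, no filter, a minimum of 6, a minimum in the PMA or untreated array, the mean of the kept probe sets, the probe set with the smallest difference, and values under 5 set to 5), the count of genes at least 2-fold higher with PMA lay between 598 and 803 and of those lower between 474 and 695. Of the 711 genes, 598 to 711 and of the 582 genes, 474 to 582 were shared with each alternative. The fold threshold moved the counts by its construction, to 1440 higher and 1623 lower at 1.5-fold and to 215 and 97 at 4-fold. Over the 196 named genes and these alternatives, 85 values moved by more than a spread of 0.39 and 1472 did not. Of the list medians 16 moved and 272 did not. The spread is an SD per array, derived from the difference between the untreated K562 arrays, which itself had an SD of 0.56. None changed sign past 2-fold. No paired analysis was possible because each side has 1 array. Signals under 5 and above 15 limit what these arrays can show.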
